A study of Mus musculus with 7 samples.

Results

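The genes described here encode class I phosphoinositide 3-kinase (PI3K) subunits and proteins that feed or oppose the pathway: Pik3ca, Pik3cb, Pik3cd and Pik3cg (catalytic subunits p110 alpha, beta, delta and gamma), Pik3r1, Pik3r5 and Pik3r6 (regulatory subunits), Pik3ap1 (the adaptor BCAP) and Inpp5d (the phosphatase SHIP1). They were taken by gene symbol, a rule that uses no measured value although earlier results of these data were known, and all 9 were found among the 32285 genes of the deposited count tables. They were followed through the cell classes of mouse brain tumours grown from NSCG, a glioma line that carries EGFRvIII and an mCherry tag and lacks Arf/Ink4a. The hosts were C57BL/6 mice aged 7 to 10 weeks, of wild-type genotype per the labels, and whole tumours were collected at about day 14. Each of the 7 droplet single-cell libraries pooled at least 2 mice of a group, so the spread between mice was not measured.

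UT (1 library) had no treatment. IgG (2 libraries) received isotype control IgG2b, dosed at 10 mg/kg. BP (2 libraries) received 5 mg/kg of B20, which blocks VEGF, and 10 mg/kg of anti-PD-L1. BPI (1 library) received the BP antibodies and 10 mg/kg of IPI-145. CD40 (1 library) received 2 doses of 100 µg of an agonist antibody to CD40. The IgG2b and BP antibodies were injected into the peritoneum every 3 days from day 6 or 7, for 3 rounds, and IPI-145, an inhibitor of p110 delta and p110 gamma, was given daily by mouth. The protocol gives IgG mice of the BPI experiment the gavage diluent too, and the labels do not say which IgG library received it. Nor do they say whether the CD40 mice received a dendritic cell vaccine. All groups carried the same tumour line. The labels give V2 barcoding chemistry for all libraries, but the barcodes of UT come from another list than those of the other 6.

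Class I PI3Ks turn the membrane lipid PIP2 into PIP3, which recruits kinases such as AKT and the TEC family. Class IA enzymes pair p110 alpha, beta or delta with a regulatory subunit of the p85 type and act below receptors that signal through tyrosine phosphorylation, whereas the class IB enzyme pairs p110 gamma with p101 or p84 and acts below G-protein-coupled receptors. SHIP1 removes the 5-phosphate of PIP3 in blood cells. p110 delta and p110 gamma are known as the leukocyte enzymes, while p110 alpha and p110 beta are found widely.

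Promoter sequences of RefSeq (build GRCm38.p6, 250 bases before to 50 after the start) were available for 8 of the 9 genes, all but Pik3r6. Because several of the genes were found together in the leukocyte classes below, 5 promoters are shown, 3 that hold the letters GAGGAAG on either strand, the core of sites for PU.1 and related ETS factors, and 2 that do not, with the motif in capitals and the most upstream listed start used for genes with several.
Pik3cg promoter, chr12:32208610-32208909, reverse strand: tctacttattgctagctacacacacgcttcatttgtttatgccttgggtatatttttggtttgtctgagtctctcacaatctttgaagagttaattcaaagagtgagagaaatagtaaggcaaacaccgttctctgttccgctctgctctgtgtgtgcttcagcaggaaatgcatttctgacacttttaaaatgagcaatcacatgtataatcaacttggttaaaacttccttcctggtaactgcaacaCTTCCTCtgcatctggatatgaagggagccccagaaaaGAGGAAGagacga
Inpp5d promoter, chr1:87620062-87620361, forward strand: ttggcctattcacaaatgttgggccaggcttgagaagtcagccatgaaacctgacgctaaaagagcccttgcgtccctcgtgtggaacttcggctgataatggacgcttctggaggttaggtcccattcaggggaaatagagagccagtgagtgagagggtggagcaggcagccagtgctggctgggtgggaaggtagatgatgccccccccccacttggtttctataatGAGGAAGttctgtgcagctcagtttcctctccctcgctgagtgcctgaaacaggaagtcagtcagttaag
Pik3ap1 promoter, chr19:41385053-41385352, reverse strand: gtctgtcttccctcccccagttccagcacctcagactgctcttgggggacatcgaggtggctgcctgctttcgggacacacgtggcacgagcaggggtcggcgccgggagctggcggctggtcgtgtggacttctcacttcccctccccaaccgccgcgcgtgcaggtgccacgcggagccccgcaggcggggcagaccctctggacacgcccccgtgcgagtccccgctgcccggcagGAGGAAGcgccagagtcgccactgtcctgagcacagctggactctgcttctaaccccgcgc
Pik3cd promoter, chr4:149698659-149698958, reverse strand: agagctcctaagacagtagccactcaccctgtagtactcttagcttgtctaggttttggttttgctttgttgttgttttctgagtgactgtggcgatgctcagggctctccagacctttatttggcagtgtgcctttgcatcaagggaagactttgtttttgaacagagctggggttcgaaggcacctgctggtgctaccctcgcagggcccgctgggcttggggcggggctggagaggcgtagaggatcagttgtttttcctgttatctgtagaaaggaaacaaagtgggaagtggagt
Pik3cb promoter, chr9:99140162-99140461, reverse strand: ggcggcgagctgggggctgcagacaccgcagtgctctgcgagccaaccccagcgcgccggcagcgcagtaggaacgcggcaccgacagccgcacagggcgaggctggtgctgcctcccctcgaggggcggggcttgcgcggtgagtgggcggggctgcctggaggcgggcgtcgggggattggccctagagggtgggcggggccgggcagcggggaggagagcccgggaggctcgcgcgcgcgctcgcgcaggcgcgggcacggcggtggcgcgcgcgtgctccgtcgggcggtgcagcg

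The motif occurred 2 times in the Pik3cg promoter and 1 time each in those of Inpp5d and Pik3ap1, which gives 3 of the 8 genes, against 13.6% of 32851 mouse promoters of that length. TGTGGT, the core of RUNX sites, was in none of the 8, against 16.8% of promoters. The leukocyte gene Pik3cg had 40.7% GC and 4 CpG dinucleotides, and the widely found gene Pik3cb had 79.0% GC and 44, against medians of 52.7% and 7 over all promoters. The values did not follow the classes in which the genes were found: the leukocyte genes Pik3ap1 and Pik3r5 had 69.7% GC with 26 CpG and 62% GC with 16 CpG. GGGCGG, a GC box, was found 4 times each in the promoters of Pik3cb, Pik3r1 and Pik3r5 and 1 time each in those of Pik3ca and Pik3cd. At least 1 was in 35.7% of all promoters. These are matches of letters in a window, and binding was not measured.

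Between 5373 and 9650 cells per library were kept (48588 in all), with a median of 8589 to 17436 UMIs per cell. Cells were clustered without these genes and without the other listed pathway genes among the variable genes, so the 9 genes did not define the classes. Some of the other listed genes, Cd28 and Egfr among them, belong to the markers that named the clusters. Tumour-like cells numbered 33880, monocyte/macrophage-like cells 3612, T-like cells 2601, microglia-like cells 2324, NK-like cells 1132 and endothelial-like cells 423. In every library with 20 cells or more, T-like cells had all 8 and microglia-like cells all 9 of their markers at 20 CPM or more, while tumour-like cells had 5 to 12 of 13. One cluster of 1664 monocyte/macrophage-like cells came to 99.5% from BP replicate 1, and values without it are given for some results below. Library pairs shared at most 27 of the barcodes with 1000 UMIs or more. Levels are CPM, the gene's UMIs scaled to those summed over a class in a library, and intervals and floors cover counting error only.

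Compared with tumour-like cells, all 9 genes were higher in monocyte/macrophage-like and in microglia-like cells. In T-like cells 8 were higher and Pik3cb was lower, and in endothelial-like cells 8 were higher and Pik3cb was not called. The test was edgeR's quasi-likelihood test on the summed counts, with the library as a block and a Benjamini-Hochberg adjusted p under 0.05 over 14025 genes. The background is high for such distant cells: 66.7% of all genes were called for T-like, 72.3% for monocyte/macrophage-like, 70.6% for microglia-like and 52.3% for endothelial-like against tumour-like cells, and 27.2%, 32.5%, 32.5% and 22.2% were called higher. In T-like cells 39.5% were called lower. The median log2 difference of the 9 genes was 4.84 in T-like, 6.10 in monocyte/macrophage-like and 7.12 in microglia-like cells, where the medians of all genes were -0.25, -0.15 and -0.13. Differences from tumour-like cells ranged from 0.59 ± 0.14 (SE) for Pik3ca to 8.43 ± 0.42 for Pik3r6 in monocyte/macrophage-like cells (edgeR, adjusted p = 4.2e-04 and 1.8e-18). In endothelial-like cells 4 of the 8 calls were lost when 1 library was left out: Pik3cd without UT (0.47, adjusted p = 0.25) or BP replicate 1 (0.73, 0.088), Pik3ap1 without UT (0.94, 0.27), and Pik3ca and Pik3cg without CD40 (0.49, 0.051 and 1.62, 0.11). Pik3ap1 was also not called there with free RNA subtracted (1.59, adjusted p = 0.41). In the library where it was highest, the free RNA estimate came to 561% of the endothelial-like level for Pik3ap1 and 144% for Pik3cg. It came to 62.7% for Pik3r5, 43.9% for Pik3cd and at most 38.0% for Pik3ca, Pik3r1, Pik3r6 and Inpp5d. In endothelial-like cells the 9 microglia markers summed to 2037 to 5334 CPM and the 11 monocyte/macrophage markers to 600 to 1455 CPM. Tumour-like sums of the same lists were 119 to 276 and 98.5 to 321 CPM. Some endothelial-like sums came from only part of a list. Microglia markers at 0 numbered 6 in BPI, 3 in IgG replicate 2, 2 in BP replicate 1 and 0 in UT and CD40. Monocyte/macrophage markers at 0 numbered 7 in BPI, 6 in IgG replicate 2, 3 in BP replicate 1, 3 in UT and 1 in CD40. The part of either list in the endothelial calls was not tested. The differences depend on the scaling: by total counts alone, an alternative chosen after seeing the data, Pik3ca in monocyte/macrophage-like against tumour-like cells was at 0.09 and not called (edgeR, adjusted p = 0.56), while the other calls of the 9 genes between classes stood.

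**Figure D1:**
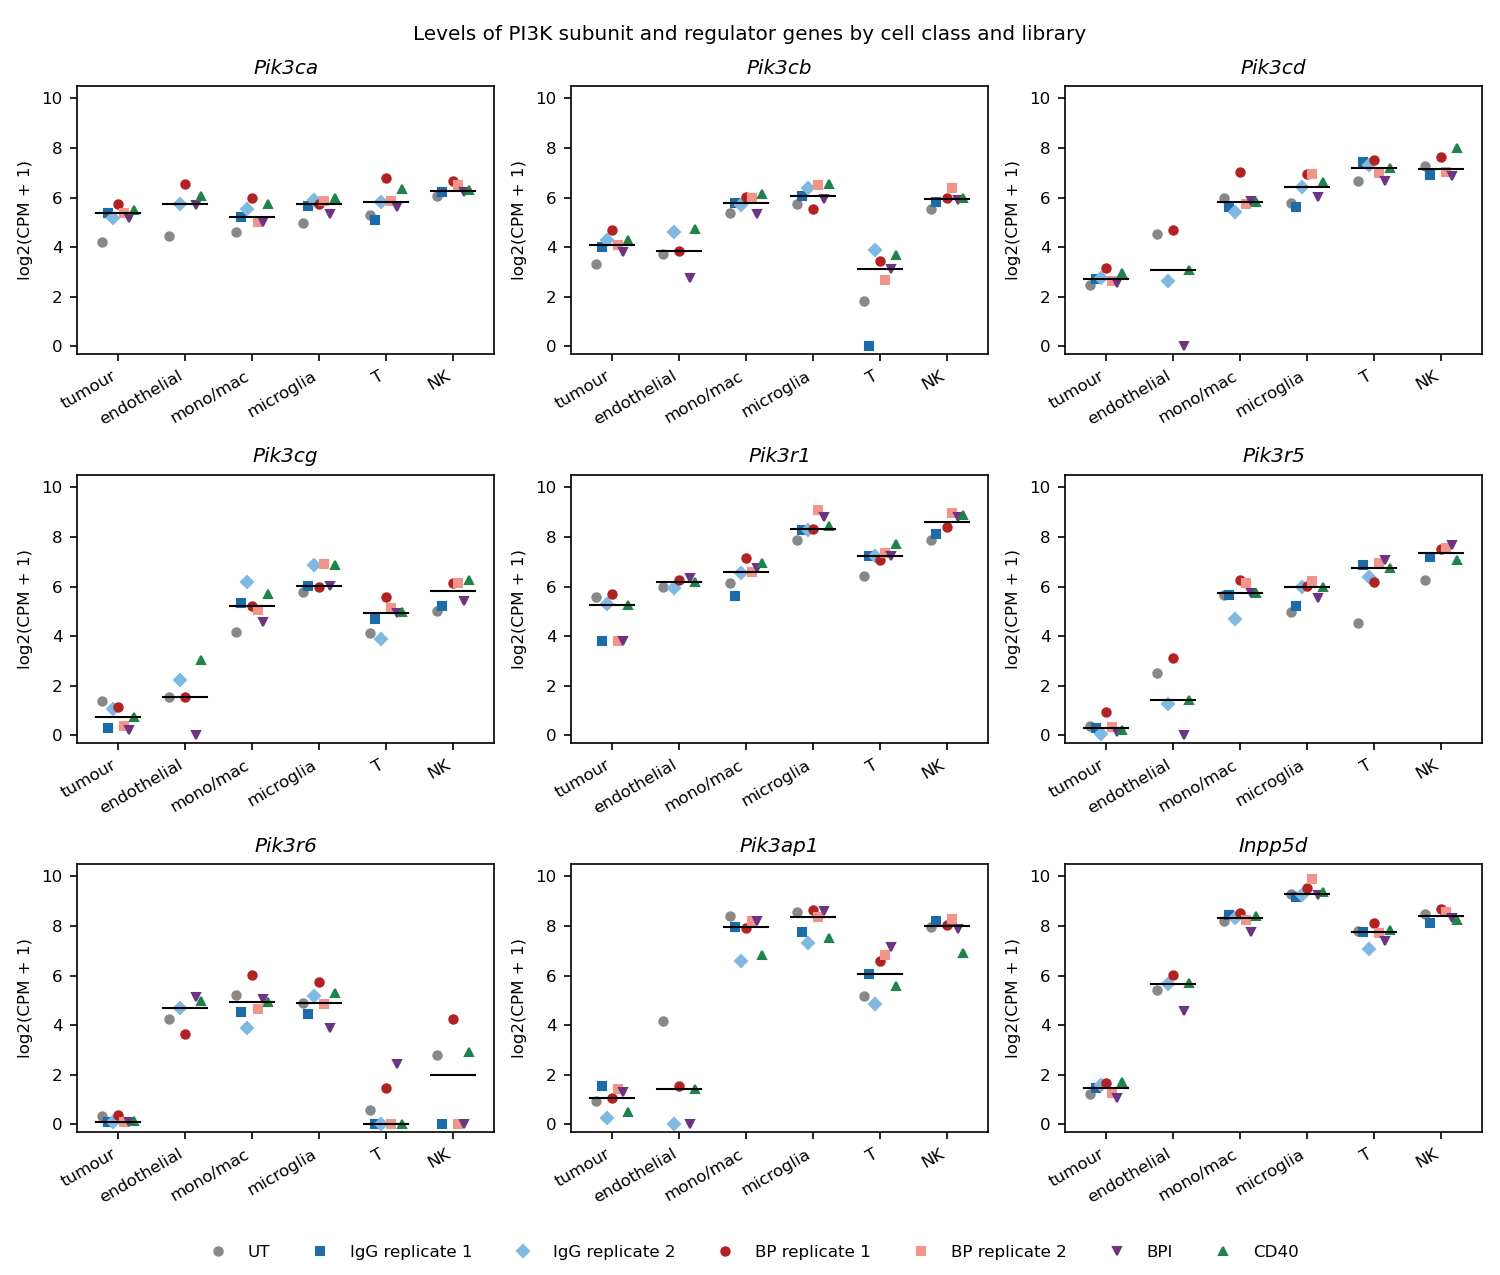
Each panel plots 1 gene as log2(CPM + 1) for 6 cell classes, with 1 point per library of at least 20 cells and a line at the median; mono/mac stands for monocyte/macrophage-like. Pik3ca was found in every class, Pik3cb was low in T-like cells, and Pik3cg, Pik3r5, Pik3ap1 and Inpp5d were near 0 in tumour-like cells and high in the leukocyte classes.

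Pik3ca (ENSMUSG00000027665, chromosome 3, 32397671 to 32468486, forward strand), whose product p110 alpha serves growth factor receptors, was the most evenly spread of the catalytic genes. In tumour-like cells its level was 17.6 CPM at the lowest (UT), 40.4 at the median and 52.9 at the highest (BP replicate 1). Medians were 35.8 CPM in monocyte/macrophage-like, 52.8 in microglia-like, 55.4 in T-like and 76.1 in NK-like cells, and the ranges of neighbouring classes overlapped. The monocyte/macrophage-like median in CPM lay below the tumour-like one, although the comparison with TMM scaling was called higher (0.59). Tumour-like cells supplied 76.4% of all Pik3ca UMIs. T-like cells exceeded monocyte/macrophage-like cells by 0.45 ± 0.15 on the log2 scale (edgeR, adjusted p = 0.013), a call that is lost without the library term (adjusted p = 0.12) or with free RNA subtracted (adjusted p = 0.068).

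Pik3cb (ENSMUSG00000032462, chromosome 9, 99036654 to 99140621, reverse strand), which encodes p110 beta, was low in T-like cells. Its T-like level was 0 CPM at the lowest (IgG replicate 1, a count of 0), 7.64 at the median and 13.8 at the highest, against 39.2, 54.6 and 69.4 CPM in monocyte/macrophage-like cells. The 2 classes did not overlap. T-like cells were lower by a log2 difference of -3.0 ± 0.22 (edgeR, adjusted p = 1.7e-13). NK-like cells, also lymphocytes, had 45.3 to 82.5 CPM and exceeded T-like cells by 2.89 ± 0.24 (adjusted p = 8.1e-11). In the 2 libraries with 20 or more B-like cells no Pik3cb UMI was counted. Up to 24.4% of the T-like level, in the library where that share was highest, equalled the estimate for RNA free in the droplets.

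Pik3cd (ENSMUSG00000039936, chromosome 4, 149649168 to 149702571, reverse strand) encodes p110 delta, which acts below antigen and cytokine receptors and is one target of IPI-145. Its T-like level was 102 CPM in UT, 172 in IgG replicate 1, 157 in IgG replicate 2, 181 in BP replicate 1, 126 in BP replicate 2, 100.5 in BPI and 145 in CD40. NK-like cells spanned 115 to 254 CPM (median 143), so T-like and NK-like cells overlapped (log2 difference 0.08 ± 0.24, edgeR, adjusted p = 0.93). Microglia-like cells had a median of 84.1 CPM, monocyte/macrophage-like cells of 56.2 and tumour-like cells of 5.58, and plasmacytoid dendritic-like cells had 91.2 to 386 CPM in 3 libraries. T-like cells exceeded monocyte/macrophage-like cells by 0.91 ± 0.22 (adjusted p = 7.8e-04), and by 0.87 ± 0.23 without the cluster that came from 1 library. In BP replicate 1 monocyte/macrophage-like cells had 129 CPM, while the other libraries had 42.0 to 62.1 CPM.

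Pik3cg (ENSMUSG00000020573, chromosome 12, 32173473 to 32208659, reverse strand) encodes p110 gamma, the other target of IPI-145 and the catalytic subunit used by chemoattractant receptors. Its microglia-like level was 54.0 CPM in UT, 64.3 in IgG replicate 1, 116 in IgG replicate 2, 61.4 in BP replicate 1, 119 in BP replicate 2, 64.5 in BPI and 115 in CD40. Monocyte/macrophage-like cells had 16.9 to 72.5 CPM (median 36.3), so the ranges overlapped, and microglia-like cells were higher by a log2 difference of 1.02 ± 0.30 (edgeR, adjusted p = 0.0059), and by 0.87 without the cluster that came from 1 library (adjusted p = 0.020). T-like cells had 13.8 to 46.4 CPM and did not differ from monocyte/macrophage-like cells beyond the spread (-0.41 ± 0.32, adjusted p = 0.30), nor did NK-like from T-like cells after adjustment (0.76 ± 0.36, adjusted p = 0.20, unadjusted p = 0.042). Microglia-like cells supplied 46.6% of all Pik3cg UMIs and monocyte/macrophage-like cells 22.5%. These shares pool libraries with 51 to 856 microglia-like and 70 to 1810 monocyte/macrophage-like cells. In UT, BP replicate 1 and BPI the monocyte/macrophage-like cells supplied more Pik3cg UMIs than the microglia-like cells. Tumour-like cells had 0.15 to 1.58 CPM, and in the library where the share was highest 39.8% of that equalled the free RNA estimate.

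Since p110 delta and gamma are the drug targets, the 4 catalytic genes were also set against their own sum. UMIs count molecules at their 3′ end without a length correction, and a gene's capture is taken to be equal in all classes, so shares are compared between classes only. Pik3cd made up 60.3% ± 8.2 (SD, n = 7) of catalytic UMIs in T-like cells and 32.4% ± 9.6 in monocyte/macrophage-like cells, higher in 7 of 7 libraries (two-sided exact sign-flip permutation p = 0.0156, the smallest that 7 pairs allow, and 0.0625 adjusted over 4 comparisons). Pik3cg made up 28.9% ± 3.8 in microglia-like and 19.4% ± 7.8 in monocyte/macrophage-like cells (n = 7), higher in 6 of 7 libraries (exact p = 0.0313, adjusted 0.0625). For Pik3cd in microglia-like against monocyte/macrophage-like cells (29.1% against 32.4%) the exact p was 0.313, and for Pik3cg in T-like against monocyte/macrophage-like cells (11.8% against 19.4%) it was 0.0781, adjusted 0.104. None of the 4 passed after adjustment. In tumour-like cells Pik3ca took 53.6% to 66.4% and Pik3cg 0.28% to 4.80%.

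**Figure D2:**
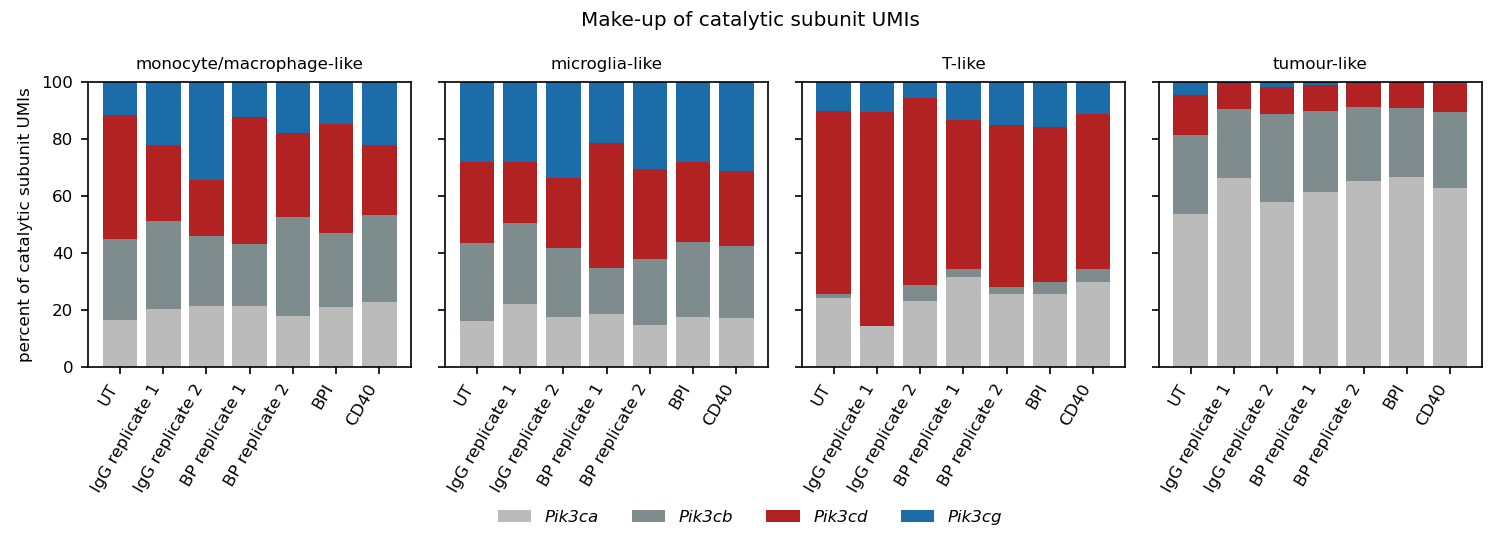
Stacked bars give the percent of the UMIs of the 4 catalytic genes that each gene holds, 1 bar per library, for 4 cell classes. Pik3cd held 52.2% to 75.0% in T-like cells, while Pik3ca held 53.6% to 66.4% in tumour-like cells.

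Pik3r1 (ENSMUSG00000041417, chromosome 13, 101680563 to 101768217, reverse strand) encodes p85 alpha and shorter forms, which hold and stabilise the class IA catalytic subunits. Of the classes tested it was highest in NK-like cells, at 236 CPM at the lowest, 392 at the median and 503 at the highest, and in microglia-like cells, at 233, 315 and 538 CPM, and these ranges overlapped. NK-like cells exceeded T-like cells by 1.23 ± 0.26 (edgeR, adjusted p = 0.0012), and microglia-like exceeded monocyte/macrophage-like cells by 1.70 ± 0.24 (adjusted p = 8.1e-07). Dendritic-like cells reached 684 CPM in UT and 800 in BP replicate 1, the 2 libraries with 20 such cells. In tumour-like cells the level was 46.5 CPM in UT, 13 in IgG replicate 1, 37.9 in IgG replicate 2, 51.6 in BP replicate 1, 13 in BP replicate 2, 13 in BPI and 37.4 in CD40. The libraries IgG replicate 1, BP replicate 2 and BPI, which carry consecutive library numbers in the labels, were low and the other 4 did not overlap with them, and the split runs across both the IgG and the BP group. In the same 3 libraries tumour-like Pik3cg was at 0.15 to 0.31 CPM and in the others at 0.68 to 1.58. The tumour markers split the same way: in the tumour-like cells of the 3 libraries 5 of 13 markers reached 20 CPM, with a summed level of 715 to 852 CPM, and in the other 4 libraries 11 or 12 did, with 1446 to 1858 CPM. The 6 genes that respond to digestion summed to 951, 1346 and 1542 CPM in the tumour-like cells of the 3 libraries and to 593 to 928 CPM in the other 4. The part of either in the result was not tested.

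Of the class IB regulatory subunits, Pik3r6 was called between leukocyte classes and Pik3r5 was not. Pik3r5 (ENSMUSG00000020901, chromosome 11, 68432121 to 68497849, forward strand) encodes p101, and Pik3r6 (ENSMUSG00000046207, chromosome 11, 68503019 to 68552698, forward strand) encodes p84, with 5169 bases and no annotated gene between them. Pik3r5 had medians of 165 CPM in NK-like, 106 in T-like, 62.0 in microglia-like, 52.1 in monocyte/macrophage-like and 0.21 in tumour-like cells, and T-like cells overlapped with each of the other 3 leukocyte classes. NK-like cells, at 76.7 CPM or more, lay just above the highest monocyte/macrophage-like (76.6) and microglia-like (73.2) values. The comparison of T-like with monocyte/macrophage-like cells was not called for Pik3r5 (0.51 ± 0.32, edgeR, adjusted p = 0.19). Dendritic-like cells had 263 and 308 CPM.

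Pik3r6 was found in myeloid and endothelial cells and was near 0 in T-like cells. T-like cells had 0 CPM in 4 libraries, 0.51 in UT, 1.78 in BP replicate 1 and 4.37 in BPI. Monocyte/macrophage-like cells had 13.8 to 64.0 CPM (median 29.7), microglia-like cells 13.8 to 52.8 (28.7) and endothelial-like cells 11.5 to 34.0 (25.2), with no overlap with T-like cells. T-like cells were lower than monocyte/macrophage-like cells by a log2 difference of -4.86 ± 0.53 (edgeR, adjusted p = 1.9e-09). Endothelial-like cells exceeded tumour-like cells by 7.51 ± 0.46 (adjusted p = 1.4e-15), with at most 15.9% of their level equal to the free RNA estimate in any library. NK-like cells were called above T-like cells (2.29 ± 0.68, adjusted p = 0.022), but 3 of their 6 libraries had no UMI, and without BP replicate 1 the difference was 0.64 (adjusted p = 0.84). The call was also lost without UT (2.16, adjusted p = 0.072) and without CD40 (2.18, adjusted p = 0.056). Subtracting free RNA ended it as well.

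Pik3ap1 (ENSMUSG00000025017, chromosome 19, 41272377 to 41385102, reverse strand) encodes BCAP, which links B cell and Toll-like receptors to PI3K. Microglia-like cells had 159 to 401 CPM (median 329), NK-like cells 119 to 312 (256), monocyte/macrophage-like cells 96.4 to 342 (246) and T-like cells 27.7 to 143 (65.5). Plasmacytoid dendritic-like cells had 456 to 664 CPM in 3 libraries. NK-like cells exceeded T-like cells by 1.37 ± 0.32 (edgeR, adjusted p = 0.0032), and T-like cells lay below monocyte/macrophage-like cells by a log2 difference of -1.81 ± 0.30 (adjusted p = 6.5e-06). The call between NK-like and T-like cells was lost without the library term (adjusted p = 0.063) and with free RNA subtracted (adjusted p = 0.16). The free RNA estimate was at most 1.92% of the Pik3ap1 level in NK-like and 5.87% in T-like cells. In tumour-like cells, which are in the same fit, it reached 168%. Why this call was lost was not tested. IgG replicate 2 and CD40, which also carry consecutive library numbers, were the 2 lowest libraries in both monocyte/macrophage-like and microglia-like cells.

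Inpp5d (ENSMUSG00000026288, chromosome 1, 87620312 to 87720507, forward strand) encodes SHIP1. Of the 4 leukocyte classes tested it was highest in microglia-like cells, where its level was 619 CPM in UT, 581 in IgG replicate 1, 606 in IgG replicate 2, 738 in BP replicate 1, 940.0 in BP replicate 2, 600.5 in BPI and 669.8 in CD40. Monocyte/macrophage-like cells had 214 to 367 CPM, so the 2 classes did not overlap, and the difference was 0.93 ± 0.13 (edgeR, adjusted p = 9.7e-07). With free RNA subtracted the difference was 1.0 and was not called (adjusted p = 0.11). NK-like cells had 274 to 413 CPM and T-like cells 134 to 276. B-like cells, which were not tested, had 610 CPM in UT and 756 in BP replicate 1, the 2 libraries with 20 such cells. With free RNA subtracted, neither T-like against monocyte/macrophage-like (-0.86, adjusted p = 0.17) nor NK-like against T-like cells (0.65, adjusted p = 0.59) was called for Inpp5d. The free RNA estimate was at most 1.08% of the Inpp5d level in microglia-like, 1.80% in monocyte/macrophage-like, 1.55% in NK-like and 1.22% in T-like cells. In tumour-like cells, which are in the same fit, it reached 134%. Why the calls were lost was not tested. The 6 genes that respond to digestion summed to 1187 to 13107 CPM in microglia-like and 719 to 2298 CPM in monocyte/macrophage-like cells. Their part in the differences between these classes was not tested. With a UMI of the gene counted after each cell was thinned to 1000 UMIs, the median share of cells was 48.4% in microglia-like, 24.5% in monocyte/macrophage-like, 28.7% in NK-like, 22.9% in T-like and 0.19% in tumour-like cells, the last being the background to read the others against. Without thinning the shares were 95.6%, 80.3%, 61.7%, 51.3% and 2.07%.

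The levels of Inpp5d, Pik3ap1, Pik3r5 and Pik3r6 in tumour-like cells, with medians of 1.76, 1.09, 0.21 and 0.07 CPM, reached the free RNA estimate in at least 1 library each, where the estimate came to 134%, 168%, 112% and 101% of the level. Pik3cd in tumour-like cells was above it in every library, the estimate being at most 24.0% of 4.59 to 7.82 CPM.

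Between T-like and monocyte/macrophage-like cells, 6 of the 9 genes were called, Pik3ca and Pik3cd higher in T-like cells and Pik3cb, Pik3r6, Pik3ap1 and Inpp5d lower, where 51.3% of all genes were called, 22.2% higher and 29.2% lower. Between microglia-like and monocyte/macrophage-like cells 3 were called (Pik3cg, Pik3r1 and Inpp5d), all higher, against 40.4% of all genes and 20% called higher. Between NK-like and T-like cells 5 were called (Pik3cb, Pik3r1, Pik3r6, Pik3ap1 and Inpp5d), all higher in NK-like cells, against 11.9% of all genes and 5.59% called higher. With free RNA subtracted 2 of them, Pik3cb and Pik3r1, were called, against 6.95% of all genes. The share between microglia-like and monocyte/macrophage-like cells, 3 of 9, was no larger than that of all genes.

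**Figure D3:**
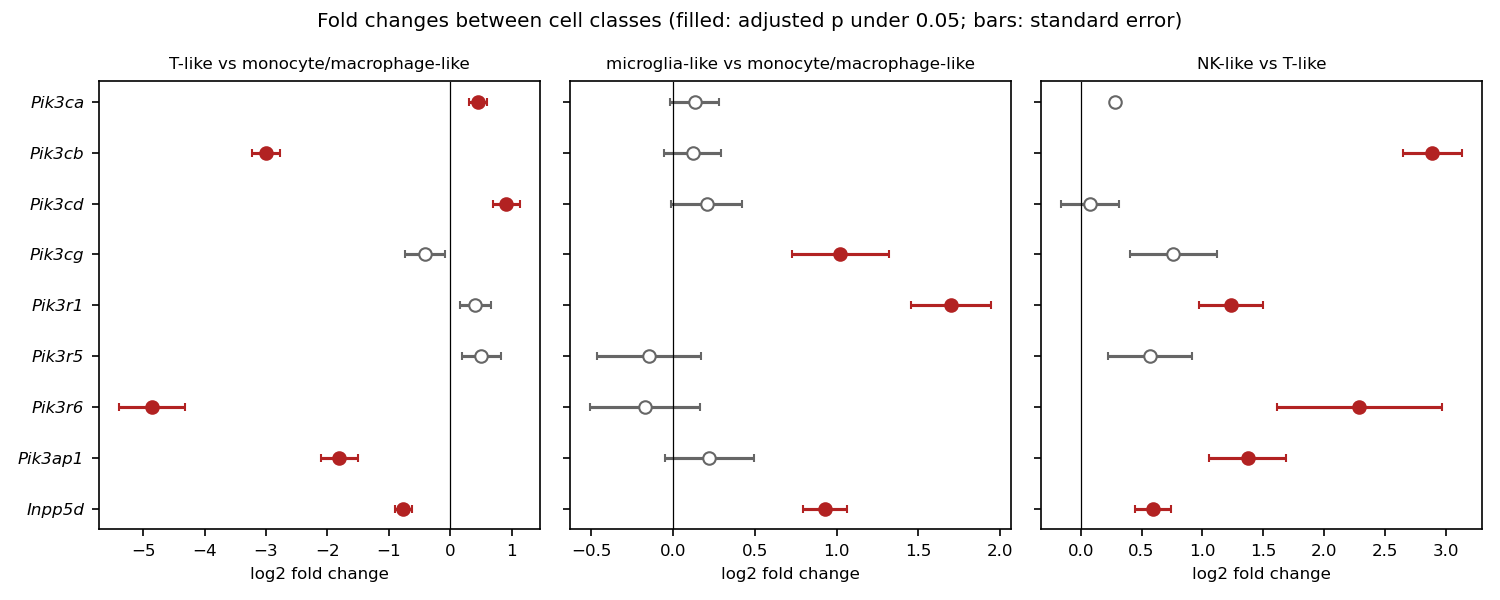
Points give the log2 fold change of each gene from edgeR and bars its standard error, for 3 pairs of cell classes, each panel with its own scale; filled points passed an adjusted p of 0.05, and Pik3ca in NK-like against T-like cells has no bar because its p did not come from the F statistic. Pik3cb and Pik3r6 show the lowest T-like values, at -3.0 and -4.86 against monocyte/macrophage-like cells.

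Other genes of the pathway were followed by lists, and their counts between T-like and tumour-like cells stand beside 27.2% of all genes called higher and 39.5% called lower. Of 6 other PI3K subunit genes, 3 were lower and none was higher in T-like than in tumour-like cells, led by Pik3r2 (p85 beta, log2 -3.06) and Pik3r3 (p55 gamma, -2.44). Of 15 receptors and adaptors that recruit PI3K, 9 were higher in T-like cells, led by Icos (11.60), Cd28 (10.79) and Hcst (10.32), and 5 were lower, led by Gab1 (-5.41), Egfr (-4.91) and Irs1 (-4.73). Cd28 belongs to the markers that named the T-like class and Egfr to those of the tumour-like class, so their direction was partly set by the naming. Of 14 PIP3 effectors 10 were higher, Dock2 (10.49) and Vav1 (7.69) among them, and 2 were lower, Akt1 (-0.95) and Btk (-1.52), the latter not called when any library but UT was left out. Of 10 genes of mTOR and its regulators 2 were higher and 4 lower, with a median of -0.24 where that of all genes was -0.25. These lists were tested one gene at a time with edgeR, with no test of a list.

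The same lists were followed between leukocyte classes. In T-like against monocyte/macrophage-like cells 5 of the 15 recruiting genes were higher, led by Trat1 (9.38), Icos (8.36) and Cd28 (7.70), and 6 were lower, led by the M-CSF receptor Csf1r (-7.29), Tyrobp (-6.95) and Syk (-6.88), where 22.2% of all genes were called higher and 29.2% lower. Of 10 G-protein-coupled receptors 6 were lower, led by the formyl peptide receptors Fpr1 (-9.74) and Fpr2 (-9.44) and by C5ar1 (-8.02), and Cxcr3 (4.48) and S1pr1 (3.07) were higher. Of the PIP3 effectors 5 were higher and 7 were lower, led by Btk (-6.31), which is the kinase used in B and myeloid cells. NK-like cells exceeded T-like cells in 6 of the 15 recruiting genes, led by Tyrobp (6.07), Syk (5.98) and Fcer1g (3.95), and were lower in 3, Trat1 (-5.88), Icos (-3.29) and Cd28 (-2.38), where 5.59% of all genes were called higher and 6.32% lower. Cd28, named in both comparisons, belongs to the markers that named the T-like class. Plcg2 was higher by 3.75 and Plcg1 lower by a log2 difference of -4.22 in NK-like cells. Between microglia-like and monocyte/macrophage-like cells 3 of the 10 receptors were higher, against 20% of all genes, among them P2ry12 (5.24) and Cx3cr1 (2.81), which belong to the markers that named the microglia-like class. This count covers receptors called higher only, and those called lower are not reported here.

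Across 63 sums of a library and a class, Pik3ap1 had the most alike gene of all, Vav1 (Pearson r = 0.96 on log2(CPM + 1), of 13048 genes). Inpp5d was most like Cyth4 (0.95), Pik3cg like Dock8 (0.94), Pik3cd like Dennd1c and Ikzf1 (both 0.89), Pik3r5 like Psd4 (0.89), Pik3r1 like Dleu2 (0.85), Pik3ca like Kmt5b (0.83), Pik3r6 like Tnfrsf11a (0.82) and Pik3cb like Tmem181a (0.74). Among the 9 genes the closest pair was Pik3ap1 with Inpp5d (0.89), followed by Pik3cg with Inpp5d (0.88). The points share libraries and depth, so these values are descriptions.

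The treated groups were compared within tumour-like, monocyte/macrophage-like, microglia-like and T-like cells, the classes with at least 20 cells in every library. With 1 library each for BPI, CD40 and UT, the spread came from the IgG and BP libraries. UT differs from the IgG libraries in its barcode list as well as in treatment, and these cannot be told apart in any comparison of UT. Against IgG, the share of all genes called in T-like cells was 1.17% for BP, 0.72% for BPI, 0.131% for CD40 and 2.66% for UT, and it was 0% in tumour-like and microglia-like cells. Of 175 tests of these genes 1 was called, and 13 had an unadjusted p under 0.05, where 0.147% to 13.7% of all genes had one, depending on the comparison. Pik3r6 could not be tested in T-like cells. In tumour-like cells the 1 gene with an unadjusted p under 0.05 was Pik3ca, lower in UT than in IgG by a log2 difference of -1.11 ± 0.31 (edgeR, adjusted p = 0.35), where 13% of all genes had one.

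IPI-145 blocks the enzymes, and the RNA of their genes was measured here. In BPI against BP, Pik3cd differed by a log2 value of -0.34 ± 0.48 in T-like, -0.23 ± 0.51 in monocyte/macrophage-like, -0.81 ± 0.49 in microglia-like and -0.17 ± 0.46 in tumour-like cells (edgeR, adjusted p from 0.999 to 1.0). Pik3cg differed by -0.18 ± 0.54, -0.21 ± 0.47, -0.32 ± 0.60 and -2.03 ± 1.44 in the same classes, the last from 7 UMIs in BPI. BPI and BP replicate 2 belong to the libraries with consecutive numbers in which tumour-like Pik3cg was low, and BP replicate 1 does not. The part of this split in the differences between BPI and BP was not tested. Without the monocyte/macrophage-like cluster from BP replicate 1 the values in that class were -0.45 ± 0.63 for Pik3cd and -0.51 ± 0.55 for Pik3cg (adjusted p = 1.0 for both). The direction turned, without a call, for Pik3cd in monocyte/macrophage-like cells without BP replicate 1 (0.32) and for Pik3cg in microglia-like cells without BP replicate 2 (0.17). The T-like Pik3cg level was 29.5 CPM in BPI, 46.4 and 33.8 in BP and 24.6 and 13.8 in IgG, where each IgG value rests on 3 UMIs. The BPI value lay between the groups. None of the 16 tests of both genes in BPI against BP or IgG was called and none had an unadjusted p under 0.05, while the background of called genes in BPI against BP was 0.218% in T-like and 0% in the other 3 classes. Outside tumour-like Pik3cg the standard errors were 0.46 to 0.60 in BPI against BP, and differences of that size were not detectable with 1 BPI library. Larger differences could be missed too. In simulated counts of BPI against BP, 17% of 4-fold changes in genes above the median level were recovered in tumour-like cells. The share was 17.5% in microglia-like, 28% in monocyte/macrophage-like and 51.5% in T-like cells.

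**Figure D4:**
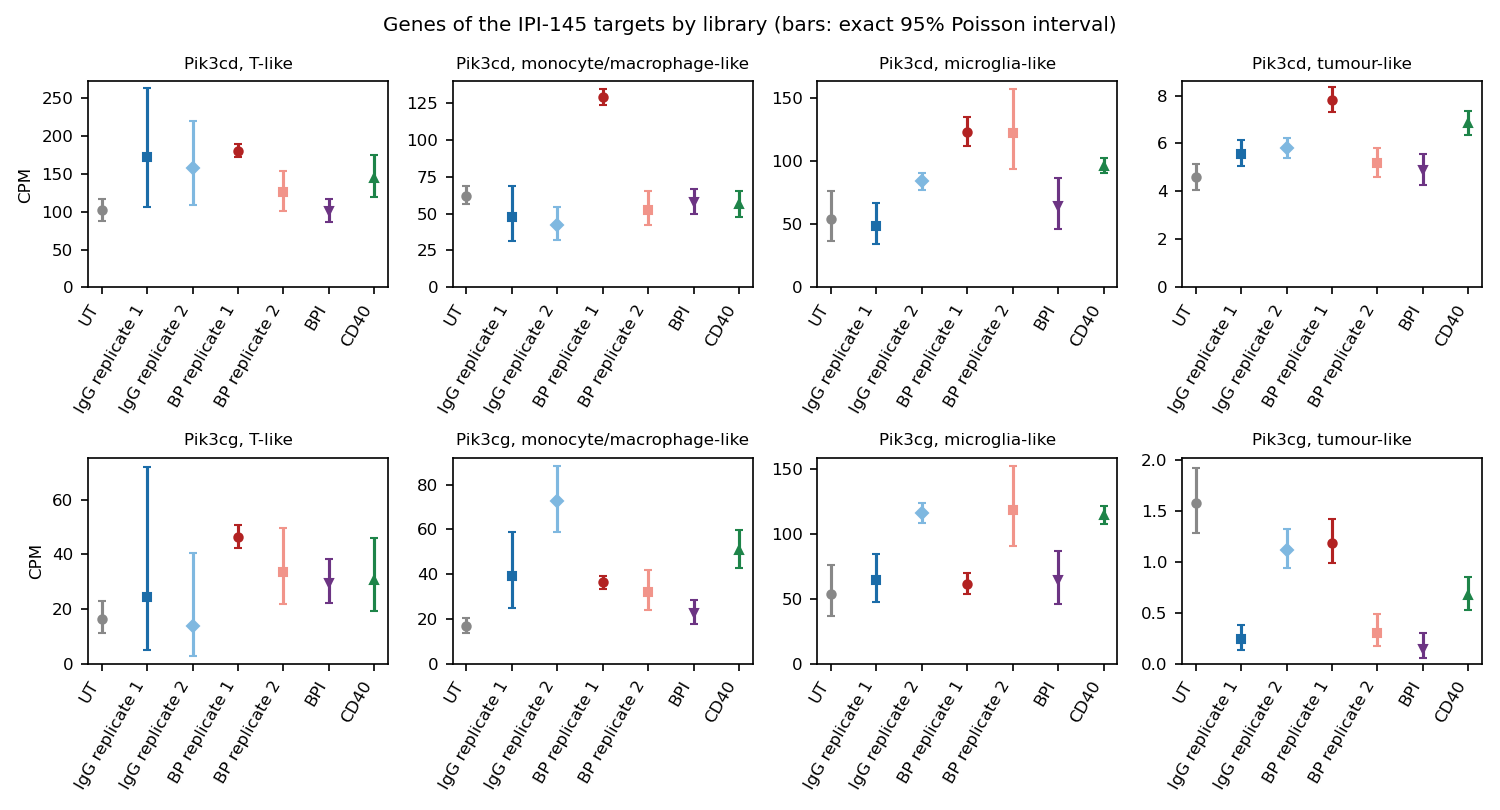
Points give Pik3cd and Pik3cg in CPM for each library in 4 cell classes, with exact 95% Poisson intervals for counting error; the vertical scales differ between panels. BPI lies at 100.5 CPM for Pik3cd in T-like cells, the lowest of the 7 libraries, with UT at 102, and its interval overlaps those of UT, BP replicate 2 and the IgG replicates.

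The 1 call was Pik3r5 in T-like cells of UT, at 21.9 CPM against 115 and 83.1 in the IgG libraries (14 and 18 UMIs) and 72.6 to 134 in the rest. UT was lowest of the 7 and did not overlap with the others. Its barcodes also come from another list than those of the other libraries, which cannot be told apart from the treatment difference. The log2 difference was -2.22 ± 0.59 (edgeR, adjusted p = 0.012), where 2.66% of genes were called. It was not called by DESeq2 (-2.23, adjusted p = 0.084) or when either IgG library was left out (-2.06 and -2.32, adjusted p = 0.13 and 0.14). Outside T-like cells, UT was the lowest library for Pik3r5 in NK-like and microglia-like cells, at 76.7 and 30.4 CPM. In monocyte/macrophage-like cells it was not, at 49.3 CPM against 49.5 and 24.6 in IgG.

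Pik3ap1 was not called in any treatment comparison, but had an unadjusted p under 0.05 in 5, and was called in T-like cells of BPI against IgG when BP replicate 2 was left out, where 1.33% of all genes were. In T-like cells it was at 65.5 and 27.7 CPM in IgG, 96.1 and 114 in BP, 143 in BPI, 46.5 in CD40 and 35.6 in UT. The IgG libraries lay below those of BP and BPI. The difference was 1.12 ± 0.53 for BP (edgeR, adjusted p = 0.53) and 1.83 ± 0.57 for BPI (adjusted p = 0.13) against IgG, where 1.17% and 0.72% of genes were called. The 11 monocyte/macrophage markers summed to 2982 CPM in the T-like cells of BPI, 1604 and 2545 in BP, 1581 and 1279 in IgG, 2111 in UT and 806 in CD40, and their part in the result was not tested. In microglia-like cells BP, BPI and UT exceeded IgG by 1.02 ± 0.36, 1.23 ± 0.43 and 1.12 ± 0.42 (edgeR, adjusted p = 1.0, 1.0 and 0.60, where 4.53%, 3.37% and 8.08% of genes had an unadjusted p under 0.05 and 0% were called), with IgG at 215 and 159 CPM and BP at 401 and 329.

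In monocyte/macrophage-like cells no gene at all was called for BP against IgG, where 7.77% had an unadjusted p under 0.05. With IgG replicate 1 and BP replicate 2, whose library numbers are consecutive, as one block and the other 2 libraries as another, a pairing added after seeing the data, Pik3r6 and 5.42% of all genes were called. In the fit without a block, Pik3cd (1.09 ± 0.44), Pik3r5 (1.12 ± 0.43) and Pik3r6 (1.43 ± 0.51) had an unadjusted p under 0.05 but were not called (edgeR, adjusted p = 0.59, 0.58 and 0.52). Without the cluster from BP replicate 1 the values were 1.27, 1.28 and 1.70, also not called. The 9 microglia markers summed to 1375 and 2829 CPM in the monocyte/macrophage-like cells of IgG, 425 and 906 in BP, 592 in BPI, 738 in UT and 1926 in CD40, and their part in these differences was not tested. In BPI against IgG, Pik3r6 differed by 1.40 ± 0.59 (adjusted p = 0.47, with 0% of genes called and 10.3% at an unadjusted p under 0.05). Pik3r6 was at 22.2 and 13.8 CPM in IgG and 64.0 and 24.3 in BP. These values did not overlap, but 22.2 and 24.3 CPM rest on few UMIs and lie within counting error of each other. In UT against IgG, where 0.00799% of genes were called and 11.5% had an unadjusted p under 0.05, Pik3cg (-1.45 ± 0.50) and Pik3r6 (1.36 ± 0.59) were among the latter (adjusted p = 0.33 and 0.42). Without BP replicate 2, Pik3cd and Pik3r6 were called for BP against IgG, where 3.2% of all genes were, and Pik3cg and Pik3r6 for UT against IgG, where 7.74% were.

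Of the pathway lists, FOXO factors, which AKT keeps out of the nucleus, and their targets had the most calls in T-like cells of BP, BPI and UT. Against IgG, 5 of 14 were lower in BP and 2 of 14 in BPI, none was higher, and 7 of 14 were lower in UT, where 0.229%, 0.131% and 1.23% of all genes were called lower. The 9 NK markers summed to 352 and 185 CPM in the T-like cells of IgG, 563 and 635 in BP, 685 in BPI, 657 in UT and 453 in CD40, with 0 to 2 of them at 0, and their part in these counts was not tested. The S1P receptor gene S1pr1, which guides T cells out of tissue, was lower by log2 differences of -2.30 ± 0.46 in BP, -2.05 ± 0.56 in BPI and -4.06 ± 0.64 in UT (edgeR, adjusted p = 5.3e-04, 0.046 and 8.3e-08). The memory-associated factors Lef1 (-1.72 ± 0.43, BP) and Tcf7 (-2.03 ± 0.55, BPI) were also called. These comparisons share the IgG libraries, which hold 39 and 57 T-like cells. For UT the treatment difference cannot be told apart from that in the barcode list. In BPI against BP 0 of the 14 were called and 1 had an unadjusted p under 0.05, where 0.218% and 2.72% of all genes did. With so few genes called and 1 BPI library, these counts show nothing particular to this list and do not show that IPI-145 left it unchanged. Cxcr4, a chemokine receptor that is also in the receptor list, was lower in BP (-1.80 ± 0.49, edgeR, adjusted p = 0.031). These calls rest largely on IgG replicate 2: without it S1pr1 was at -1.25 in BP and -1.01 in BPI, Lef1 at -0.32, Tcf7 at -0.31 and Cxcr4 at -0.49, none of them called (edgeR, adjusted p from 0.77 to 0.99). In UT S1pr1 was still called without it (-2.94, edgeR, adjusted p = 0.030), but Lef1 (-1.28, adjusted p = 0.57) and Tcf7 (-0.66, adjusted p = 0.81) were not. In BP, DESeq2 called neither S1pr1 nor Lef1 (adjusted p = 0.096 and 0.10) and gave no adjusted p for Cxcr4, and the fit with the replicate number as a block called none of the 3 (edgeR, adjusted p from 0.33 to 0.70). The BPI calls of S1pr1 and Tcf7 were also lost with DESeq2 (adjusted p = 0.81 and 0.68), with its size factors in edgeR (0.12 and 0.099), with no low-count filter (0.064 for both), at clustering resolution 2 (0.11 and 0.088) and with free RNA subtracted (0.087 and 0.070).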

How the data were processed

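UMI counts per gene and barcode were deposited by the authors for 7 libraries, for all listed barcodes (713553 to 2310016 per library), with Cell Ranger 4 named in the file headers and Cell Ranger 7.0.1 in the submitters' processing notes, on build mm10. Barcodes needed at least 1000 UMIs and 500 genes and no more than 15% of UMIs from mitochondria, and the top Scrublet scores (0.8% per 1000 cells) were removed as doublets. Total depth was 68997476 to 186793886 UMIs per library.

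After scaling cells to 10000 counts, Leiden clusters (resolution 1, scanpy 1.11.5) were made from 15 neighbours in 30 components of 2000 variable genes, with 101 listed pathway genes left out. Clusters were named from 19 marker lists, with at least 3 raised markers (20 CPM and 4 times the lower-quartile cluster plus 5 CPM); mixed clusters were split once at resolution 0.5. Summed counts (at least 20 cells) were tested with edgeR 4.0.16 in R 4.3.3 (TMM, filterByExpr). Class contrasts needed 4 libraries, so dendritic-like, neutrophil-like and B-like contrasts were not run. Free RNA was estimated from barcodes under 100 UMIs. Statistics were tested on simulated data. The p-values measure the spread between pooled libraries. The genes and lists were chosen with earlier results of these data known. Beside the 9 genes, list genes were named only if called, up to 3 rising and 3 falling per list and comparison, and the most alike genes by correlation. Some list genes that met this rule are not reported here. Positions are from the GENCODE annotation of GRCm38. Alternatives tried were DESeq2 1.42.0, other size factors, no low-count filter, no library term, leaving out each library, 2000 UMIs per cell, resolution 2, pathway genes allowed in clustering, free RNA subtracted, 50 cells per sum and, added after seeing the data, total-count scaling.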

Additional observations from a re-analysis of the deposited data

How the results depend on the processing

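Between classes, the count of the 9 genes called stayed within 1.5 times under all alternatives but 1: with free RNA subtracted, 2 were called between NK-like and T-like cells in place of 5 (6.95% of all genes). Single genes were followed under the alternatives mostly where the main fit called them, and Pik3cd and Pik3cg also in BPI. Genes of the other lists with the largest differences are included. The values were thus selected for strong calls, and their counts do not describe all genes. Of them, 3243 kept their direction and side of the threshold, 184 lost a call and 5 turned sign. Without thinning, 44 shares of cells with a UMI moved beyond their spread, nearly all of those compared. Scaling by total counts alone moved the median log2 difference of all genes from -0.25 to -0.58 in T-like against tumour-like cells, from -0.15 to -0.66 for monocyte/macrophage-like and from -0.13 to -0.44 for microglia-like cells, and from -0.12 to 0.06, 0.01 to 0.21 and -0.04 to 0.08 in T-like against monocyte/macrophage-like, microglia-like against monocyte/macrophage-like and NK-like against T-like cells. In the same order the shares of all genes called higher and lower became 21% and 50.8%, 23.1% and 56%, 26.4% and 47.5%, 28.1% and 23.6%, 27.8% and 14.6%, and 7.32% and 4.24%. Between treatments, monocyte/macrophage-like cells had 2 calls in BP against IgG and 2 in UT against IgG without BP replicate 2 (range over left-out libraries 0 to 2), where 3.2% and 7.74% of all genes were called, and T-like cells had 1, Pik3ap1, in BPI against IgG without BP replicate 2 (0 to 1; 1.33% of all genes). In T-like cells of UT against IgG, 0 were called by DESeq2 and 0 without either IgG replicate (0 to 1). With the replicate number as a replicate block, 0 of the genes were called in BP against IgG in any of the 4 classes. Same-numbered libraries did not deviate together (correlation -0.70 in tumour-like, -0.24 in monocyte/macrophage-like, 0.03 in microglia-like and -0.05 in T-like cells), so the replicate numbers do not pair the libraries, and the negative values mean that opposite-numbered libraries deviated together in tumour-like and monocyte/macrophage-like cells. The crossed pairing, added after seeing the data, which puts IgG replicate 1 with BP replicate 2 as their library numbers do, called 1 gene, Pik3r6, in monocyte/macrophage-like cells (5.42% of all genes) and 0 in the other classes. The cause was not tested for any of these. Signs turned, none of them called, for Pik3cd in BPI against BP in monocyte/macrophage-like cells without BP replicate 1 (0.32, and -0.69 without BP replicate 2), for Pik3cg in BPI against BP in microglia-like cells without BP replicate 2 (0.17, and -0.77 without BP replicate 1), for Pik3cd in BPI against IgG in microglia-like cells without IgG replicate 1 (-0.28, and 0.60 without IgG replicate 2) and at 2000 UMIs per cell (-0.16), and for Pik3cg there without IgG replicate 2 (0.21, and -0.74 without IgG replicate 1). Depth limits the small classes: T-like cells of IgG are summed over 39 and 57 cells.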
